A study of Mus musculus with 12 samples.

Results

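The 10 genes described here encode enzymes of glycolysis, the pathway that turns glucose into pyruvate and lactate: Hk2, Gpi1, Aldoa, Tpi1, Gapdh, Pgk1, Pgam1, Eno1, Pkm and Ldha. They were taken by name, but with earlier results of these data known. The shares of all genes set beside them below are therefore a description and not an independent test. All 10 of 10 were found among the 21887 protein-coding genes that RefSeq (assembly GRCm38.p6) places on chromosomes 1 to 19, X and Y. For each, the peaks were collected that overlap the gene body with 1 kb on both sides by at least 1 bp. The series mapped R-loops, in which RNA pairs with its DNA template and the other DNA strand is left single, by immunoprecipitation with the hybrid-binding antibody S9.6. Its 12 libraries form 6 groups of 2: precipitate, precipitate treated with RNase H1, and input, from HEPA1-6 cells and from liver. HEPA1-6 is an established mouse hepatoma line, here untreated, of wild-type genotype and grown in DMEM with serum. The livers came from untreated wild-type C57/Bl6 mice, whose age and number the labels do not give. Both sources carry the cell type label hepatocyte.

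The values analysed are 1 deposited peak list per source, 28717 peaks from HEPA1-6 and 14908 from liver, each called on a merged precipitate against an input per the peak names. With no list per replicate there is no replicate error, so differences between the lists are described without a test, and the sequencing depth is unknown. Libraries digested with RNase H1, which removes hybrids, were left aside, so the part of each peak that the enzyme removes was not measured. A peak reports a population of cells: fewer cells with a hybrid and fewer hybrids per cell cannot be told apart. The liver list is called liver-labelled below because of its marker genes. There 3 of 12 hepatocyte genes held a peak (Alb, Hnf4a and Trf), against 9 of 12 proliferation genes. The HEPA1-6 counts were 3 and 11. Over all protein-coding genes, peaks were found at 29.7% (liver) and 42.0% (HEPA1-6). The hepatocyte share, 25.0% both times, was thus near the general rate for liver and further below it for HEPA1-6. Proliferation genes stood above that rate, at 75.0% (liver) and 91.7% (HEPA1-6). The part of these marker genes in the results below was not tested. Of 12 genes of other liver cells, 2 held a peak in each list (Cd68 and Dcn), or 16.7% both times. The other 10 held none in either.

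Glycolysis runs in the cytosol of nearly every cell. Hexokinase, phosphofructokinase and pyruvate kinase are its controlled steps, and the remaining steps run close to equilibrium. Hepatocytes carry their own forms of several enzymes, among them the liver form of pyruvate kinase, and can run the pathway backwards to release glucose. Dividing and tumour cells mainly use the forms in the present set, such as hexokinase II, aldolase A and the muscle-type pyruvate kinase and lactate dehydrogenase A. R-loops form behind RNA polymerase at transcribed genes, above all where the new RNA is rich in G.

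These 5 promoters are printed because they span what the lists held at a start site: a peak in both lists at Gapdh, Pgam1 and Ldha, in HEPA1-6 alone at Eno1, and in neither at Pgk1. Each is the 250 bases before a start site in the RefSeq promoter table (GRCm38.p6), read 5′ to 3′ on the strand of the gene. Capitals mark runs of 4 or more G or C, that is GGGG on either strand. The positions are chr6:125165774-125166023 (minus strand) for Gapdh, chr19:41911621-41911870 (plus) for Pgam1, chr7:46845554-46845803 (plus) for Ldha, chr4:150236458-150236707 (plus) for Eno1 and chrX:106186850-106187099 (plus) for Pgk1.
Gapdh: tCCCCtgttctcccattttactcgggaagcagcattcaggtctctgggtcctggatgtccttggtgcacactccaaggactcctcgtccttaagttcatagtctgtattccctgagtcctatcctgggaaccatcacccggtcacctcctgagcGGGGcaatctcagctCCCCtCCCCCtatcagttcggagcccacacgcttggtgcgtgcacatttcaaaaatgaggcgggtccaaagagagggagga
Pgam1: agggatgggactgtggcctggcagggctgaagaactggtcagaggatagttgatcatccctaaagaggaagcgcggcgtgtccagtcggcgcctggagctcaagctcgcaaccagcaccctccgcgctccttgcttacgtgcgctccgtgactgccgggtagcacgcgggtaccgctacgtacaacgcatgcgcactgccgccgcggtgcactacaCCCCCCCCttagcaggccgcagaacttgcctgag
Ldha: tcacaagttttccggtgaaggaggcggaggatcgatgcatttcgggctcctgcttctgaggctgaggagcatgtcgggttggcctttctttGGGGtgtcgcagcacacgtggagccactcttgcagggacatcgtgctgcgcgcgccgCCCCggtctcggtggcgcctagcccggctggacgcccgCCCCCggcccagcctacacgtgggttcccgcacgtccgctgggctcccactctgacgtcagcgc
Eno1: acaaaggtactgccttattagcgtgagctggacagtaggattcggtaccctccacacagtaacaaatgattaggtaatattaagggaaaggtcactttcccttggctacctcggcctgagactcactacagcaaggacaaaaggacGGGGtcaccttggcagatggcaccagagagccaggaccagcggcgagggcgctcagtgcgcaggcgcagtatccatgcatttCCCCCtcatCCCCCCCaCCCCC
Pgk1: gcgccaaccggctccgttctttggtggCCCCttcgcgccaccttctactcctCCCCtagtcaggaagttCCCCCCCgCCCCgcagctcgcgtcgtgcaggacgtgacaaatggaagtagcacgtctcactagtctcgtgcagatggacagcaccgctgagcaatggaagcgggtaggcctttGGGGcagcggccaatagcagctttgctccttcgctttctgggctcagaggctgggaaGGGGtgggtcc

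In HEPA1-6, 10 of the 10 glycolysis genes held a peak, against 42.0% of protein-coding genes. In the liver-labelled list 9 of 10 did, against 29.7%, and Pgk1 was the exception. Thus 9 genes held a peak in both lists, as 27.8% of protein-coding genes did, 1 in HEPA1-6 alone (14.2% of genes) and 0 in the liver-labelled list alone (1.89%). Among all genes with a HEPA1-6 peak, 66.1% also held a liver-labelled one. Genes as long as these (3573 to 49430 bp) held peaks somewhat more often than the general rate, 47.0% for HEPA1-6 and 32.5% for the liver-labelled list. Peak numbers at the 10 genes were 27 for HEPA1-6 against 21 for the liver-labelled list. A group of 4 genes (Aldoa, Tpi1, Gapdh and Pgam1) held a single peak in each list, and these are the 4 shortest. At the longer genes the signal was broken into 2 to 9 HEPA1-6 peaks, and into 2 to 5 liver-labelled peaks where there were any.

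**Figure D1:**
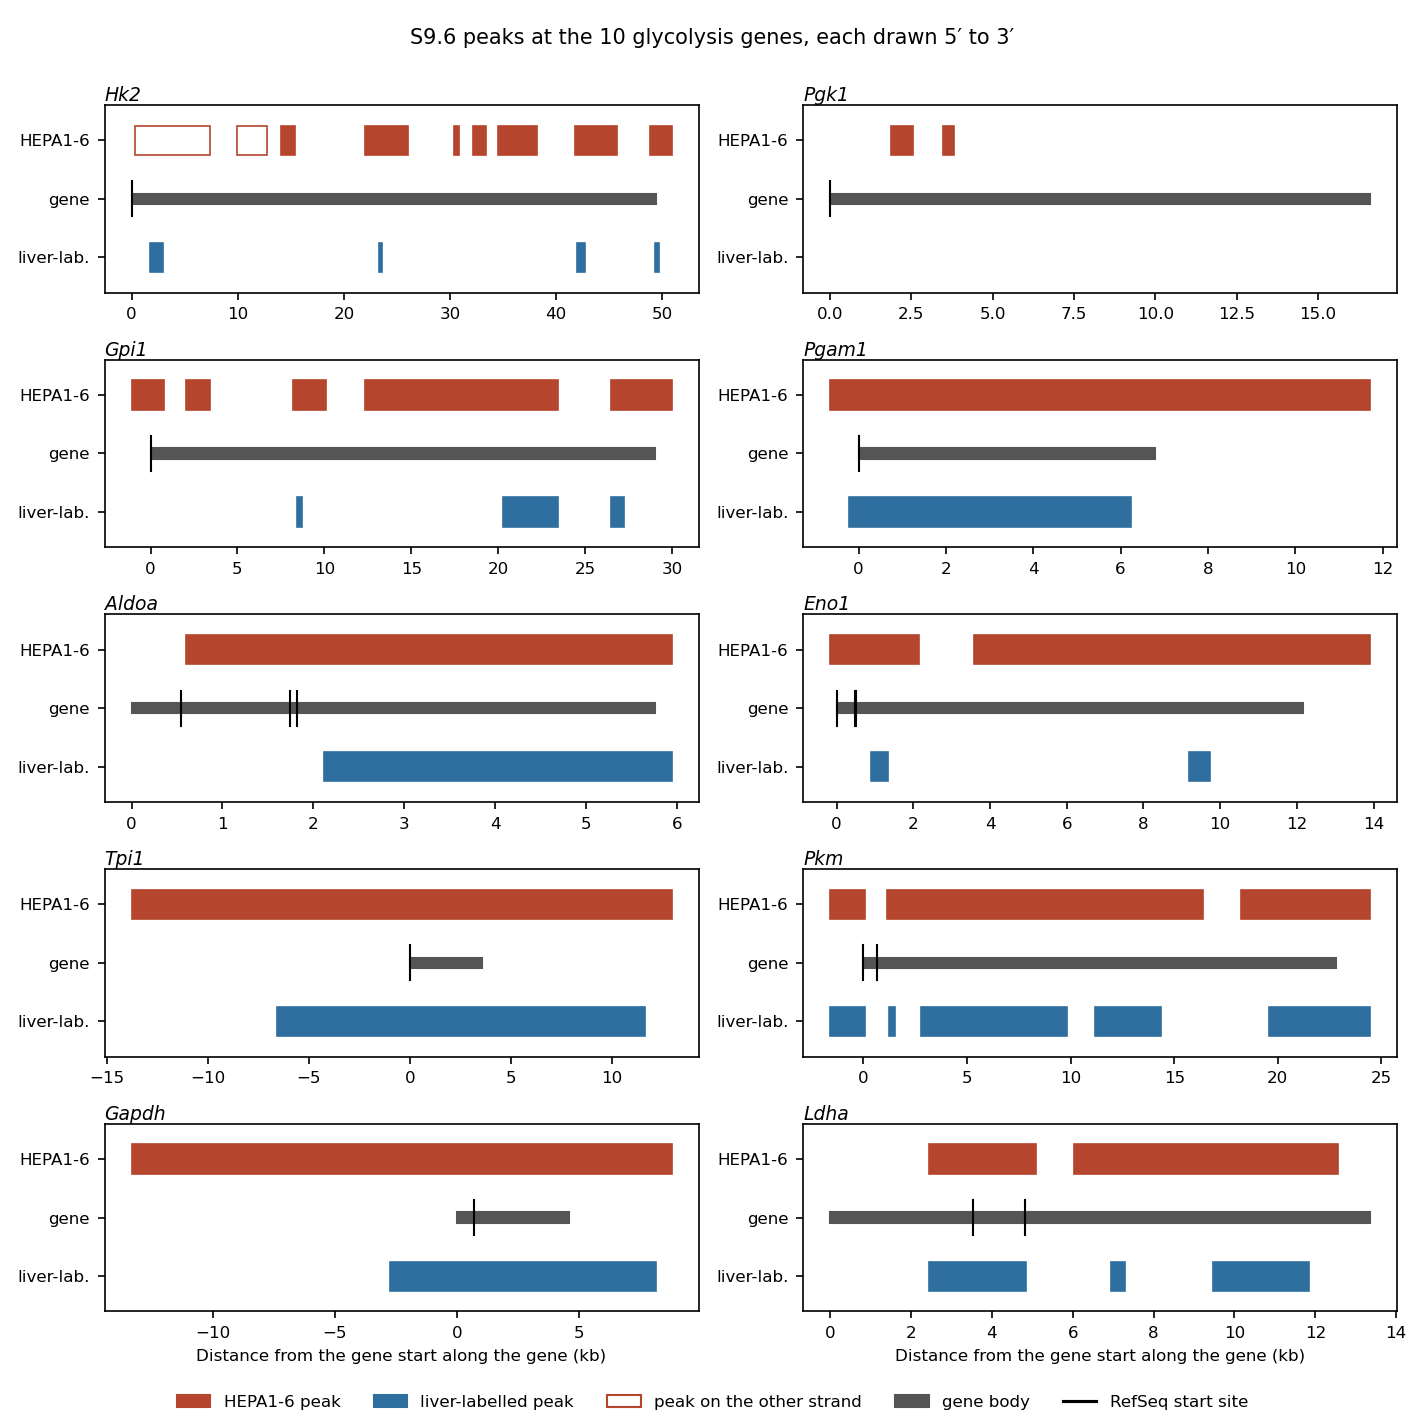
Peaks at each glycolysis gene by distance from the gene start in kb, drawn along the direction of transcription, with the HEPA1-6 list above and the liver-labelled list below the gene body (grey) and RefSeq start sites as black ticks. Open boxes are peaks whose deposited strand is opposite to the gene. Single wide peaks run past both ends of Tpi1 and Gapdh, Hk2 is broken into 9 and 4 peaks, and Pgk1 has 2 short HEPA1-6 peaks and no liver-labelled peak.

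Among the enzymes that prepare and split the sugar, Hk2 and Gpi1 held several peaks in each list, and Aldoa and Tpi1 a single one. In HEPA1-6 the single peaks of Aldoa and Tpi1 scored higher than any peak of Hk2 or Gpi1. The score is the authors' whole number per peak with no stated scale, so it was turned into a rank within its list. "Top 5%" below means that the peak stands within the highest-scoring 5% of that list's peaks, and scores are not compared across lists.

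Hk2 encodes hexokinase II, which traps glucose in the cell as its phosphate. The gene lies on the minus strand of chromosome 6 (82725025 to 82774454). It held 9 HEPA1-6 peaks of 458 to 7007 bp with scores of 12 to 38, which covered 50.9% of the gene body. Its 4 liver-labelled peaks of 266 to 1185 bp scored 13 to 21 and covered 4.69%. The best peak of the gene stood in the top 16.1% of HEPA1-6 and the top 50% of the liver-labelled list. No peak in either list covered the start site itself. The nearest HEPA1-6 peak began 0.33 kb into the gene and the nearest liver-labelled peak 1.74 kb into it. The first 2 HEPA1-6 peaks after the start (82761687 to 82764481, score 26, and 82767116 to 82774122, score 36) were assigned to the strand opposite to Hk2. The liver-labelled peak inside the second of them (82771533 to 82772717, score 13) carried the strand of Hk2.

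Gpi1 encodes glucose-6-phosphate isomerase, which converts glucose-6-phosphate to the fructose form. It lies on the minus strand of chromosome 7 (34201327 to 34230336). Its 5 HEPA1-6 peaks with scores of 13 to 37 covered 61.1% of the body, and 3 liver-labelled peaks with scores of 17 to 21 covered 14.3%. The largest, 34206902 to 34217973 in HEPA1-6 (11.1 kb, score 37), began at the same base as a liver-labelled peak of 3.16 kb (score 21), towards the 3′ end of the gene. The HEPA1-6 peak over the start site (34229532 to 34231429, score 17) had no liver-labelled counterpart, and reached 248 bp into the lncRNA gene Gm12762. The 5′ end of Gpi1 was thus covered in HEPA1-6 alone, and at a low rank (top 63.8%).

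Aldoa encodes aldolase A, which splits fructose bisphosphate into triose phosphates. It is a gene of 5.76 kb on the minus strand of chromosome 7 (126795234 to 126800994). Its HEPA1-6 peak ran from 126795055 to 126800391 (score 76, top 4.05%) and covered 89.5% of the body. The liver-labelled peak ended at the same base beyond the 3′ end but stopped short of every start site (126795055 to 126798873, score 32, top 23.0%), and covered 63.2%. Of the 3 start sites that RefSeq lists, the 2 inner ones lay inside the HEPA1-6 peak, and none lay inside the liver-labelled peak.

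Tpi1 encodes triose-phosphate isomerase, which interconverts the triose phosphates. At 3.57 kb on the minus strand of chromosome 6 (124810586 to 124814158) it was the shortest gene of the set and lay under its widest peaks. In HEPA1-6 a peak of 26.7 kb (124801208 to 124827938, score 96, top 2.66%) covered the gene whole. In the liver-labelled list a peak of 18.2 kb did so (124802518 to 124820755, score 59, top 5.93%). They ranked 19 and 11 by width in their lists. Of these peaks 13.4% and 19.6% lay in the Tpi1 body, and the rest reached 13.78 kb and 6.6 kb upstream and 9.38 kb and 8.07 kb downstream. Both covered the neighbour Spsb2 whole, and Usp5, a deubiquitinase gene, by 89.3% and 39.7%. Another 3 liver-labelled peaks (scores 19 to 23) lay further upstream under the HEPA1-6 peak, and with them 55.2% of Usp5 was covered in that list. Which of these genes the signal came from was not tested.

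Among the enzymes that harvest energy from the triose, Gapdh held the highest-scoring peak of the set in both lists, and Pgk1 had the lowest best score in HEPA1-6 and no liver-labelled peak. Gapdh encodes glyceraldehyde-3-phosphate dehydrogenase, the oxidising step of the pathway. Its HEPA1-6 peak (chromosome 6, 125157662 to 125179799, 22.1 kb) scored 191 and ranked 211 of 28717. The liver-labelled peak (125158309 to 125169208, 10.9 kb) scored 150 and ranked 164 of 14908. The gene body (125161852 to 125166467, minus strand) was covered whole in both lists. The peaks began 4.19 kb and 3.54 kb past the 3′ end, within Iffo1. Upstream, the HEPA1-6 peak reached 13.33 kb beyond the start of Gapdh and covered 48.9% of Ncapd2, a condensin subunit gene on the same strand. The liver-labelled peak ended 2.74 kb upstream of Gapdh and covered 4.99% of Ncapd2. Under the rest of the HEPA1-6 peak lay 2 further liver-labelled peaks, 125170246 to 125171683 (score 21) and 125173155 to 125177545 (score 22). Over all peaks, coverage of Ncapd2 was 56.9% for HEPA1-6 and 29.2% for the liver-labelled list. The lists thus differed outside the gene, upstream and at the downstream edge, and not in the gene body.

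Pgk1 encodes phosphoglycerate kinase, which makes the first ATP of the pathway. Its gene (X chromosome, 106187100 to 106203699, plus strand) stood apart from the other members. It held 2 HEPA1-6 peaks, 106188969 to 106189641 with a score of 20 (top 50.2%) and 106190572 to 106190908 with a score of 12 (top 92.6%). They lay 1.87 to 3.81 kb after the start and covered 6.08% of the body. No liver-labelled peak lay within 1 kb of the gene, and none lay within 5 kb. Signal too weak to be called would not appear in the list. Pgk1 is the only member on the X chromosome. Of 966 protein-coding genes there, peaks lay at 13.9% in HEPA1-6 and at 5.90% in the liver-labelled list. Whether the chromosome bears on the low values at Pgk1 was not tested.

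Pgam1 encodes phosphoglycerate mutase, which moves the phosphate group within phosphoglycerate. The gene (chromosome 19, 41911871 to 41918665, plus strand) was covered whole by a HEPA1-6 peak of 12.4 kb (41911217 to 41923582, score 59, top 6.63%). The liver-labelled peak (41911661 to 41918101, score 40, top 14.0%) covered the start site and 91.7% of the body. It stopped before the 3′ end, whereas the HEPA1-6 peak ran 4.92 kb past it into the end of Exosc1, an exosome subunit gene on the opposite strand.

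Eno1 encodes enolase, which forms phosphoenolpyruvate. It showed one of the larger gaps between the lists. In HEPA1-6, a peak over the start (chromosome 4, 150236536 to 150238872, score 46, top 10.9%) and one over the rest of the gene (150240292 to 150250619, score 39) covered 88.3% of the body. Within each of them lay a single short liver-labelled peak, of 444 bp (150237613 to 150238056, score 21) and 552 bp (150245895 to 150246446, score 22), which together covered 8.18%. The covered stretch was 10.8 times as long in HEPA1-6, the same ratio as at Hk2.

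Pkm encodes the muscle-type pyruvate kinases, whose isoforms arise by alternative splicing and which make pyruvate and ATP. The gene is 22.8 kb long (chromosome 9, 59656576 to 59679372, plus strand). A peak of almost the same extent ended just past the start in HEPA1-6 (59654962 to 59656638, score 34) and in the liver-labelled list (59654962 to 59656643, score 21). It lay mostly upstream, beside the start, with 945 bp in the lncRNA gene Gm51708 on the opposite strand. The body held a HEPA1-6 peak of 15.2 kb (59657707 to 59672947, score 113, top 1.96%). Inside it lay 3 liver-labelled peaks, the highest at 59659362 to 59666384 (score 59, top 5.93%). Both that peak and the HEPA1-6 peak covered the lncRNA gene LOC115487221 whole. A last peak ended at 59681025 in both lists, 1.65 kb past the gene and within Gramd2. In all, 87.3% and 60.5% of the body were covered.

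Ldha encodes lactate dehydrogenase A, which turns pyruvate into lactate and regenerates the cofactor of the Gapdh step. The gene lies on the plus strand of chromosome 7 (46842274 to 46855627). Its higher peak began at base 46844716 in both lists and covered both RefSeq start sites. It ended at 46847363 in HEPA1-6 (score 96, top 2.66%) and at 46847118 in the liver-labelled list (score 43, top 11.8%). The rest of the gene held 1 HEPA1-6 peak (46848300 to 46854845, score 41) and 2 liver-labelled peaks inside it (scores 22 and 23). Coverage was 68.8% and 38.5%. The outermost 5′ boundary of Ldha lies 3530 bp before the first listed start site and had no peak within 1 kb.

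Taking the 10 genes side by side, coverage of the gene body had a median of 87.8% for HEPA1-6 and 49.5% for the liver-labelled list. Protein-coding genes of the same range of lengths that held a peak had medians of 21.7% and 9.29%. At least 50% of the body was covered at 9 of 10 glycolysis genes in HEPA1-6, against 9.31% of protein-coding genes and 22.2% of those with a peak. Hk2, at 50.9%, was just past this share. The liver-labelled count was 5 of 10, against 3.41% and 11.5%. Shorter genes are covered more readily, so both parts of the set were read on their own. Of the 4 genes of 3573 to 6795 bp, 4 were past 50% in each list. In that range 20.5% of genes were so for HEPA1-6 and 9.53% for the liver-labelled list, or 52.7% and 33.5% of those with a peak. Of the 6 genes of 12172 to 49430 bp, 5 were past 50% in HEPA1-6 (all but Pgk1), against 7.48% of such genes and 15.0% of those with a peak. With the HEPA1-6 list shortened to as many peaks as the liver-labelled list, Hk2 and Gpi1 fell below 50%, which left 3 of these 6 genes and 7 of all 10. Pkm alone was in the liver-labelled list, against 1.28% and 3.77%.

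**Figure D2:**
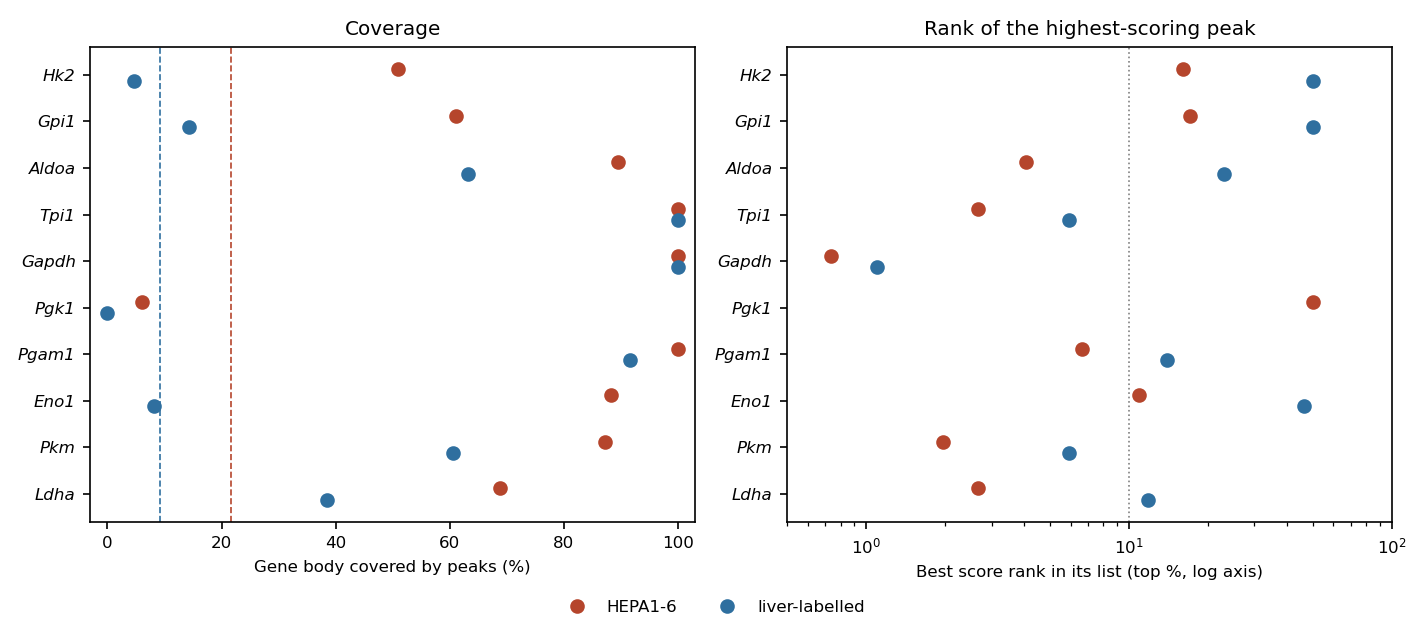
Left, share of each gene body covered by peaks in percent, with dashed lines at the medians of protein-coding genes of the same length range that held a peak (21.7% and 9.29%). Right, rank of the highest-scoring peak as the top percent of its list on a log axis, with a dotted line at 10%. Gapdh, Tpi1 and Pkm lie left of that line in both lists, and Pgk1 has no liver-labelled point.

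By rank, 6 of 10 genes held a peak within the top 10% of HEPA1-6 (Gapdh, Pkm, Tpi1, Ldha, Aldoa and Pgam1), against 12.8% of protein-coding genes. The liver-labelled count was 3 (Gapdh, Tpi1 and Pkm), against 5.79%. Eno1 came close in HEPA1-6, at 10.9%, and Ldha in the liver-labelled list, at 11.8%. The order of the genes was alike in both lists: over the 9 genes with a peak in both, the best ranks had a Spearman rho of 0.966. Over the 6077 protein-coding genes with a peak in both it was 0.702. These correlations are descriptions across genes, which share their libraries.

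The peaks of the lists were largely nested. By at least 1 bp, all 21 liver-labelled peaks at the glycolysis genes overlapped a HEPA1-6 peak, where 75.9% of the liver-labelled list did. Of the gene body bases covered in the liver-labelled list, 44453 of 44458 were also covered in HEPA1-6, and the 5 others lie at the start of Pkm. In the reverse direction, 18 of 27 HEPA1-6 peaks overlapped a liver-labelled peak (31.8% in the whole list). With an overlap of 50% of both peaks required, 6 peaks in each list still had a counterpart. For this requirement no whole-list share was worked out. The 9 HEPA1-6 peaks without any overlap lay at Hk2 (5), Gpi1 (2) and Pgk1 (2). Over the 10 genes HEPA1-6 peaks covered 2.34 times as many body bases, close to the ratio of all covered bases in the lists (2.62). The excess was uneven: none at Tpi1 and Gapdh, 1.09 times at Pgam1, 1.42 at Aldoa, 1.44 at Pkm, 1.79 at Ldha, 4.28 at Gpi1 and 10.8 at both Hk2 and Eno1. Of the overlapping peaks at the glycolysis genes, 6 of 18 in HEPA1-6 and 6 of 21 in the liver-labelled list shared an edge at the same base (at Gpi1, Aldoa, Pkm and Ldha), against 55.5% and 46.6% in the whole lists. With the HEPA1-6 list shortened to its 14908 highest-scoring peaks, Hk2 kept 34.6% and Gpi1 46.9% of the body covered, Pgk1 held no peak (its score of 20 is tied at the limit) and the other 7 values did not move.

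Along the gene, a peak lay within 1 kb of the gene start at 8 of 10 members in HEPA1-6, against 24.5% of protein-coding genes with a known strand and 57.8% of those with a peak. For the liver-labelled list it was 5, against 16.7% and 56.2%. Gene ends had a peak within 1 kb at 9 members in HEPA1-6 (23.8% of genes, 56.2% of those with a peak) and at 6 in the liver-labelled list (11.8% and 39.5%). Measured at the start sites that RefSeq lists, which adds Ldha in both lists and Aldoa in the liver-labelled list, the counts were 9 and 7 (backgrounds 25.9% and 17.9%). A start site itself lay inside a peak at 8 members in HEPA1-6 (19.1%) and at 5 in the liver-labelled list (11.9%), namely Tpi1, Gapdh, Pgam1, Pkm and Ldha.

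**Figure D3:**
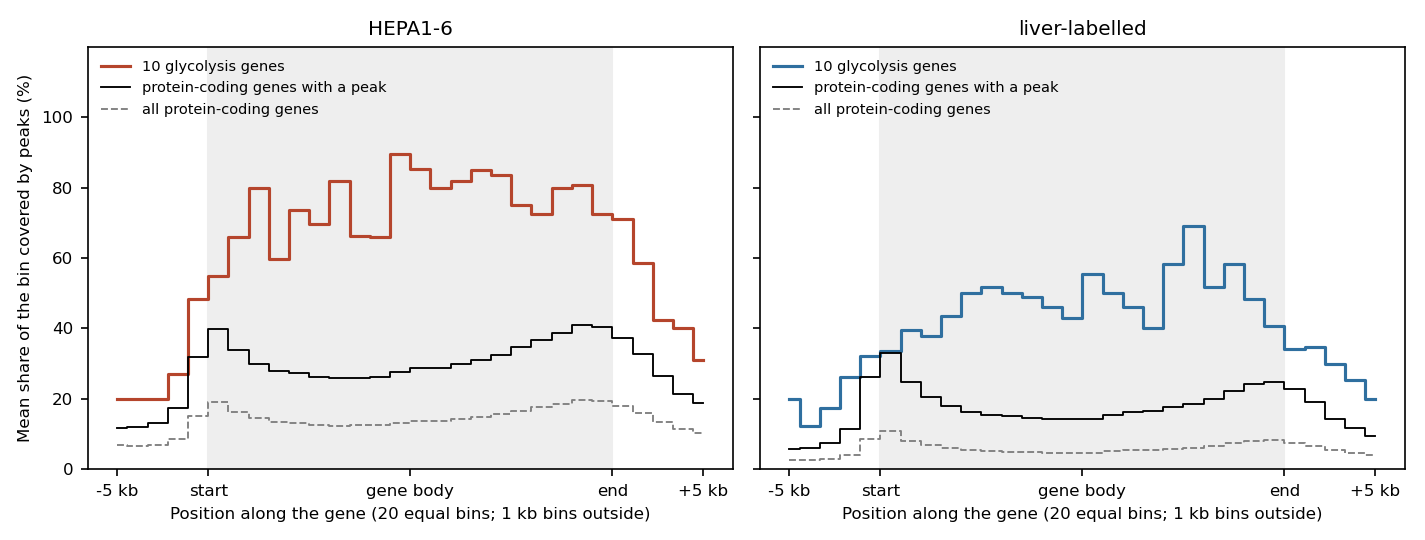
Mean share of each bin covered by peaks in percent, over 20 equal bins of the gene body (shaded) from start to end and 1 kb bins for 5 kb outside, for the 10 glycolysis genes (coloured), 10408 protein-coding genes of the same length range with a known strand (dashed) and those of them with a peak (black). The coloured lines are highest inside the gene, where the black lines dip.

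The profile over the gene body differed in outline from that of other genes with peaks. In genes of the same length range that held a HEPA1-6 peak, mean coverage was 31.7%, 26.3%, 30.1% and 38.3% over 4 equal stretches of the body from start to end, highest in the last. The glycolysis genes had 66.8%, 74.7%, 83.2% and 76.1%, highest in the third. The liver-labelled values were 22.4%, 14.6%, 16.0% and 21.9% for genes with a peak, and 40.8%, 48.0%, 50% and 53.6% for the glycolysis genes. The first bin of the body alone was covered to 33.6% in the members and 32.9% in genes with a liver-labelled peak. With 10 genes, a single gene moves a bin by up to 10 percentage points.

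How a strand was given to a peak is not stated in the sources used here, so it is reported only as deposited. On the strand of their gene were 25 of 27 HEPA1-6 peaks and 21 of 21 liver-labelled peaks. In the whole lists, 4.1% of HEPA1-6 peaks and 15.3% of liver-labelled peaks carry no strand, but 0 of the peaks at the glycolysis genes lacked one. Among peaks with a strand that touch 1 protein-coding gene of known strand and no other gene, 93.9% and 91.8% lay on its strand. The members' shares are thus near the background. Both exceptions were the HEPA1-6 peaks at the 5′ part of Hk2.

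The promoters of the set varied in base composition. RefSeq lists 16 start sites for the 10 genes, each with a window from 250 bases before to 50 after it. GC content was 52.7% to 69.0%, against a median of 56.3% over 21263 windows of protein-coding genes. The observed over expected ratio of CpG was 0.501 to 1.03 at 15 of them and 0.0 at the outermost window of Aldoa, against a median of 0.567. Windows whose start site lay inside a HEPA1-6 peak had medians of 63.3% GC and 0.828, and those outside one 54.7% and 0.454. Pgk1, outside a peak, had values like the covered windows (66.7% GC, ratio 0.723), and Gapdh, inside one, values nearer to the uncovered ones (56.7%, 0.501). The other windows were mixed as well. Inside a HEPA1-6 peak, Pgam1 (65.0%, 0.948) and the first start site of Ldha (67.3%, 0.882) were like the covered windows. Tpi1 (57.3%, 0.625), the first start site of Eno1 (57.0%, 0.58) and the second of Ldha (56.7%, 0.54) were nearer to the uncovered ones. Outside a peak, the outermost window of Aldoa had 52.7% and 0.0. Hk2 (67.3%, 0.757) and the inner start site of Pkm (61.3%, 1.03), also outside, had values like the covered windows. Whether base composition bears on the peaks was not tested. GC skew, the excess of G over C on the coding strand as a share of both, was 0.06 at Pgk1 and -0.0706 at Gapdh, with the highest value at Tpi1 (0.163) and the lowest at the inner start site of Pkm (-0.457). Median skew was 0.0142 inside and 0.0159 outside HEPA1-6 peaks.

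In the printed stretches the G and C runs sit differently. Pgk1 has 2 runs of G and 4 of C, Gapdh 1 and 3, Eno1 1 and 3 with the C runs close to the start site, Ldha 1 and 2, and Pgam1 a single run of 8 C. The motif GGGG was present on either strand in 16 of 16 member windows, against 88.2% of all windows. GGGCGG, the GC box bound by Sp1 and its relatives, was found in 11 of 16, against 46.2%. ACGTG, the core of the element bound by the hypoxia factor HIF-1, was found in 8 of 16, against 20.9%. Both strands were searched, CACGTG counts on both, and GGGG and GGGCGG can share bases. The 16 windows are not separate promoters: some windows of Aldoa overlap each other, as do some of Eno1. A motif in their shared bases counts in more than 1 window. Within the printed 250 bases ACGTG occurred 5 times at Ldha, 2 times at Pgk1 and once at Pgam1. These are letter matches and not binding sites.

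Isozyme genes of the same steps held peaks at about the general rate. Of 20, 7 had a peak in HEPA1-6 (background 42.0%), and 6 had one in the liver-labelled list (background 29.7%). Their median coverage was 0.0% in both lists. For the hexokinase step, Hk1 held 4 low HEPA1-6 peaks (best score 20, 2.28% of the body), and Hk3 and Hkdc1 held none in either list. Aldoc, the brain aldolase gene, held no peak in either list. Among lactate dehydrogenases, Ldhb, Ldhc and Ldhal6b held none. Pgk2, Eno1b, Eno4 and the aldolase retrogenes Aldoart1 and Aldoart2 held none.

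Of the isozyme genes that did hold peaks, Bpgm, which makes the bisphosphoglycerate that tunes haemoglobin, had 7 HEPA1-6 peaks (best score 59, 41.2% of the body) and 4 liver-labelled peaks (best score 52, 12.7%), all on its own strand. Eno3, the muscle enolase gene, was covered to 89.9% and 56.5%, by peaks that also lay over neighbouring genes, and no liver-labelled peak in its body lay on its own strand. Pgam2, the muscle mutase gene, was covered to 96.7% and 40.1% by a peak in each list, neither assigned to its own strand. Pklr, which encodes the liver and red cell pyruvate kinases, was covered to 17.6% and 12.6%, and its liver-labelled peak (score 26) was not assigned to its own strand. Eno2, the neuronal enolase gene, was covered to 23.6% in HEPA1-6, and Gapdhs, the sperm form, to 20.8%. HEPA1-6 peaks at both genes also touched other protein-coding genes, and 1 of 4 at Gapdhs lay on its strand. Both genes had a liver-labelled peak within 1 kb but none in the body. Counting peaks inside the body and on the strand of the gene, 6 isozyme genes remained in HEPA1-6 and Bpgm alone in the liver-labelled list. Strand was known for 16 of the 20.

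**Figure D4:**
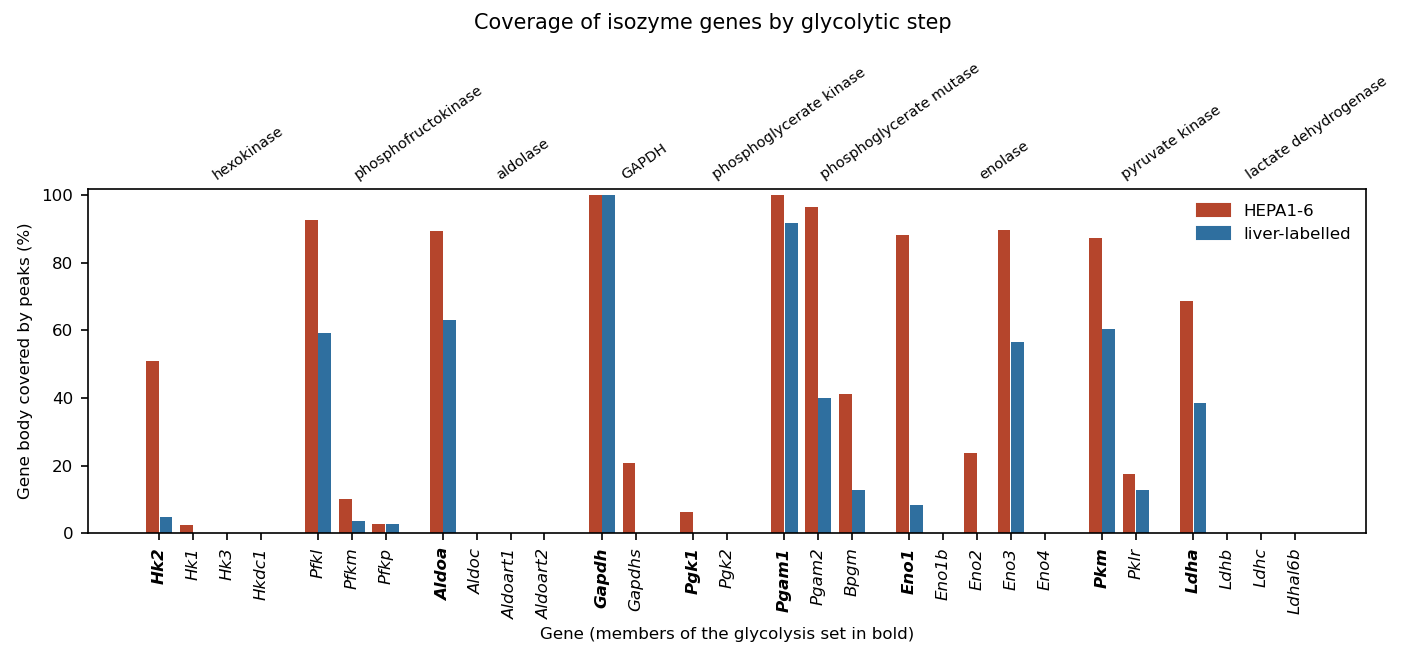
Share of the gene body covered by peaks in percent, for the members (bold) and isozyme genes of each step, with phosphofructokinase added and Gpi1 and Tpi1 left out as they have no listed isozyme. HEPA1-6 is red and the liver-labelled list blue. At the hexokinase, aldolase and lactate dehydrogenase steps the bold gene is the one with broad coverage among those drawn, while Eno3, Pgam2 and Pfkl are covered as broadly as members.

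The phosphofructokinase step, the main control point, has no gene in the set. Its 3 genes held peaks in both lists. Pfkl, the liver-type subunit, was covered to 92.8% in HEPA1-6 (best score 53) and 59.4% in the liver-labelled list (best score 30), as broadly as Pkm. Pfkm was covered to 10.0% and 3.45%, and Pfkp to 2.53% in both. At all 3 genes, peaks in each list also touched another protein-coding gene. In HEPA1-6, 1 of 2 peaks of Pfkl, 2 of 4 of Pfkm and the single peak of Pfkp lay on the strand of the gene. In the liver-labelled list 3 of 4 peaks of Pfkl and 3 of 4 of Pfkm did, and the single peak of Pfkp did not.

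Across the 64 other genes of the pathway, 31 had a peak in HEPA1-6 (48.4%), and 22 had one in the liver-labelled list (34.4%), shares near the backgrounds of 42.0% and 29.7%. Gluconeogenesis, the reverse pathway of liver, had 2 of 8 in each list (Pcx and G6pc3). Its liver enzyme genes Fbp1, Pck1 and G6pc held no peak in either. Of 7 transporter genes 3 had a peak in HEPA1-6 and 2 had one in the liver-labelled list. Slc2a1, the widespread glucose transporter, had 81.8% and 12.9% of the body covered, and Slc16a1, a lactate transporter, 34.4% and 14.2%. Slc16a3, of the same family, had 9.99% covered in HEPA1-6 (best score 68) and no liver-labelled peak. The HEPA1-6 signal there also touched another protein-coding gene. Slc2a2, the liver transporter, held none in either list. Of 9 regulators 5 and 4 held peaks, with Myc the highest (scores 118 and 58). Of 10 genes for the entry of pyruvate into mitochondria 5 and 3 did. Of 7 pentose phosphate genes 6 had a peak in HEPA1-6, and Pgls and Taldo1 (2 of 7) also in the liver-labelled list.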

How the data were processed

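S9.6 immunoprecipitates, RNase H1 treated immunoprecipitates and inputs were sequenced from HEPA1-6 cells and mouse liver, 2 libraries each. The authors deposited 1 peak list per source with a score per peak, a whole number of 10 or more whose scale is not stated. Per the submitters' processing notes, CASAVA 1.8.2, cutadapt, Bowtie2, bedtools, SAMtools and MACS2 were used with build mm10. Roles, thresholds, the libraries merged and the way strands were assigned are not given in the sources used here. Gene bounds came from RefSeq (GRCm38.p6, 49943 genes placed), and gene strands and start sites from its promoter table, which covers 17492 of 21887 protein-coding genes. Exons were not used here. Overlaps needed 1 bp, and coordinates are 1-based. Scores were ranked within a list (Python 3.11.15, pandas 2.3.3). The overlap and coverage code was tested on simulated data. Members and gene lists were chosen with earlier results of these data known. All 10 members are named, with isozymes of their steps, of which some are counted but not reported by name here, and, of the other pathway groups, up to 3 genes of highest score rank. Neighbouring genes are named where a peak runs into them. Beyond this rule, Fbp1, Pck1, G6pc, Slc2a2 and the marker genes named were picked with their values in view. Depth is unknown, and intervals for background shares are 95% Wilson intervals over genes. Alternatives varied the flank, the peaks used, the overlap and the start definition.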

Additional observations from a re-analysis of the deposited data

How the results depend on the processing

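A count or ratio within 1.5 times the reported one, a share within its interval and an identical median coverage were taken as the same. Of 67 alternative values for 20 results, 50 were the same and 17 moved. The number of glycolysis genes with a peak was among the former: 8 to 10 in HEPA1-6 and 7 to 9 in the liver-labelled list. The background moved with its definition: 40.2% and 27.6% without a flank, 46.3% and 33.6% with 5 kb, 47.0% and 32.5% for genes as long as the members, 33.5% and 20.8% with the higher-scoring 50% of each list, and 34.0% in HEPA1-6 with equal numbers of peaks. Requiring an overlap of 50% of both peaks left 6 overlapping member peaks in each list, and the higher-scoring 50% left 9 and 11, with fewer peaks by construction. Apart from fewer peaks by construction, the cause was not tested, and no share over all peaks was worked out for these settings. Median coverage was 76.5% and 41.4% with 1 kb added on both sides, and 48.7% in the liver-labelled list with the higher-scoring 50%. With equal numbers of peaks, 3 of the 6 longer members (5 as reported) had 50% of the body covered in HEPA1-6. Start sites from the promoter table and equal numbers for coverage were added after seeing the data. No paired analysis was possible because each source has 1 pooled list, so replicates could not be left out either. Unknown depth limits every statement that a gene held no peak.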

Other observations

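RefSeq names 16 copies of the members as retrogenes or pseudogenes of them (5 of Aldoa, 3 each of Gapdh, Pgk1 and Ldha, and 2 of Pgam1). Of these, 0 of 16 held a peak in the gene body in either list. Without a flank, 40.2% (HEPA1-6) and 27.6% (liver-labelled) of protein-coding genes did. The copies are short (477 to 2052 bp) and most are pseudogenes, for which no share was worked out. Whether the count is low for such genes is therefore not known. Short reads from such copies and from the exons of the parent gene can be hard to place, and how the authors treated them is not given in the sources used here.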
